A study of Mus musculus with 6 samples.

Results

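The genes of the tumour necrosis factor (TNF) superfamily and of its receptor superfamily were followed in cultured mouse mast cells of 2 genotypes, wild type (WT) and deleted for the microRNA miR-155 (named miR-155 KO here). Members were taken by name from the probe sets with a single gene symbol: all symbols beginning with Tnfsf or Tnfrsf, and Tnf, Lta, Ltb, Ltbr, Fas, Fasl, Cd27, Cd70, Cd40, Cd40lg, Eda, Edar and Ngfr. This gave 42 of the 19938 genes tested, 16 ligands and 26 receptors, each with 1 probe set. Tnfsf12 and Tnfsf13 share 1 probe set with several symbols and were not analysed here.

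The cells were grown from bone marrow of C57BL/6J mice for 5 weeks with IL-3 at 0.5 ng/ml and SCF at 1 ng/ml. Both genotypes received IgE against the hapten DNP (0.2 µg/ml) overnight and then the antigen DNP-HSA (20 ng/ml) for 1 h, so an unstimulated group is not part of the comparison. Each genotype had 3 independent cultures and 1 Affymetrix Mouse Gene 1.0 ST array per culture, 6 arrays in all. Values are log2 intensities, a difference is the KO mean minus the WT mean on that scale, and errors are SD over 3 arrays or the moderated standard error (SE) of a difference. A gene is said to have risen or fallen where the limma adjusted p over all 19938 genes was under 0.05. Intensities of different probe sets were not set against each other.

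Ligands of the TNF superfamily are mostly trimeric membrane proteins, some of which are also cut off the cell surface, and each binds 1 or more receptors. Receptors with a death domain, such as Fas and TNFR1, can start apoptosis, while most others recruit TRAF adaptors and switch on NF-κB and MAP kinases. Mast cells are known for storing TNF in granules and for making more of it when antigen cross-links IgE on their surface. MicroRNAs pair through their seed with sites in messenger RNAs and lower the output of those transcripts. The microRNA absent from the KO cells has the following mature strands in RefSeq (GRCm38.p6), shown because they are what separates the groups. The first lies at chr16:84714143-84714165 and the second at chr16:84714182-84714202, both on the plus strand, and capitals mark the seed, bases 2 to 8.

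mmu-miR-155-5p: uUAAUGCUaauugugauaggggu
mmu-miR-155-3p: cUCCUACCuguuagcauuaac

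The arrays were checked before the members were compared. Mir155, the deleted gene, read 2.93, 2.88 and 3.17 on the WT replicates and 2.77, 2.91 and 2.90 on the KO replicates, below the median gene in both genotypes, so its probe set cannot check the labels. All 15 measured mast cell markers lay above the median gene (a mean over the 6 arrays of 3.92). All 11 T cell, 8 B cell, 6 NK cell and 9 neutrophil markers lay below it, as did 11 of 14 macrophage and dendritic cell markers, 5 of 8 basophil and eosinophil markers and 5 of 8 stromal markers. In each of these lists 0 genes changed by limma, where 0.823% of all genes did. At an unadjusted p under 0.05, reached by 12.7% of all genes, there were 4 of 15 mast cell markers, 3 higher and 1 lower. The counts were 2 for the macrophage and dendritic cell list (1 higher and 1 lower), 1 for the basophil and eosinophil list (lower) and 0 for the others. The mast cell marker Hdc differed by 0.84 (adjusted p = 0.233), with all KO arrays above WT. In the macrophage and dendritic cell list the class II gene H2-Ab1 differed by -0.56 (adjusted p = 0.0523) and Itgax by 0.39 (adjusted p = 0.382). The other class II genes of that list differed little: H2-Aa by -0.04, H2-Eb1 by -0.04, Cd74 by 0.06 and Ciita by 0.08. On the first principal component (48.3% of the variance) KO replicate 1 lay apart from the other KO arrays, at 32.0 against 5.36 and 7.31. In RNA from whole cultures, fewer expressing cells and less RNA per cell cannot be told apart.

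Of the 42 members, 2 rose and 0 fell in miR-155 KO cells. They were Tnfrsf9, which encodes the co-stimulatory receptor 4-1BB (CD137), and Tnfsf14, which encodes the ligand LIGHT. Over all genes tested 0.507% were called higher, 0.316% lower and 0.823% in either direction (101 and 63 genes, and 97 and 100 when quantile normalization was repeated, which left the members' calls as they were). The other 40 members did not pass, with differences from -0.49 to 2.28. The median difference was 0.07 for the ligands and 0.07 for the receptors, against -0.01 for all genes. The 3 KO arrays lay above the 3 WT arrays for 11 members and below them for 1, where 8.18% and 9.05% of all genes did so. At an unadjusted p under 0.05 there were 11 members, 10 higher and 1 lower, and 12.7% of all genes reached it in either direction. Differences of at least 1 log2 unit were found for 4 members, Tnfsf4, Fas, Tnf and Tnfsf14, and for 0.487% of all genes. Without KO replicate 1, the array that lay apart, 2 members were called again, Tnfrsf9 and Tnfsf14.

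**Figure D1:**
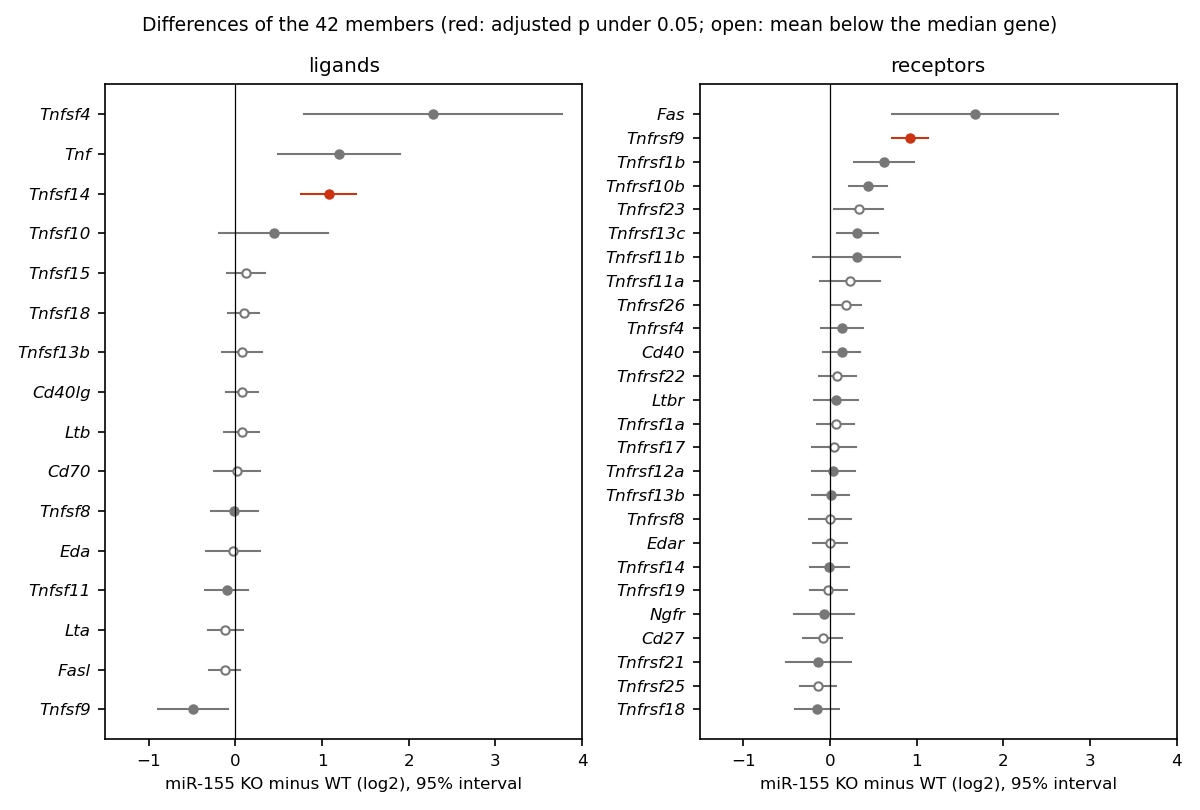
Difference between miR-155 KO and WT (x axis, log2 scale) for the 16 ligand and 26 receptor genes (y axis), as points with 95% intervals from limma, 3 arrays per genotype. Red marks an adjusted p under 0.05, reached by Tnfsf14 and Tnfrsf9, and open points mark the 20 members whose mean lay below the median gene; the widest intervals are those of Tnfsf4 and Fas.

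Tnfrsf9 had the lowest p of all members. 4-1BB is induced on activated lymphocytes and on mast cells and signals through TRAF adaptors. Its log2 intensity was 10.87, 10.68 and 10.63 on WT replicates 1, 2 and 3 and 11.65, 11.60 and 11.69 on KO replicates 1, 2 and 3. The genotypes did not overlap, and the KO arrays spanned 0.09 while lying well clear of the highest WT array. Tnfrsf9 rose from 10.72 ± 0.13 to 11.65 ± 0.04 (SD, n = 3), a difference of 0.92 (SE 0.09, 1.90-fold, 95% interval 0.72 to 1.13, adjusted p = 0.00576). It passed in all 6 fits that left out 1 array (adjusted p from 0.0125 to 0.0372). It did not pass when the test covered all 35557 probe sets, unnamed ones included (adjusted p = 0.0666, the highest over its alternatives, which began at 5.63e-04).

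Tnfsf14 was the ligand that rose. LIGHT binds the lymphotoxin beta receptor (Ltbr) and HVEM (Tnfrsf14). Its intensity was 8.04, 7.91 and 7.86 on WT replicates 1, 2 and 3 and 9.31, 8.73 and 9.01 on the KO replicates. All KO arrays were above all WT arrays, with KO replicate 1 highest. Tnfsf14 rose from 7.94 ± 0.09 to 9.02 ± 0.29 (SD, n = 3), a difference of 1.08 (SE 0.14, 2.11-fold, 95% interval 0.76 to 1.40, adjusted p = 0.0158). It no longer passed without WT replicate 1, 2 or 3 or without KO replicate 3 (adjusted p = 0.0625, 0.0735, 0.0788 and 0.0578), nor over all probe sets (adjusted p = 0.114, the highest over its alternatives, which began at 0.00424).

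**Figure D2:**
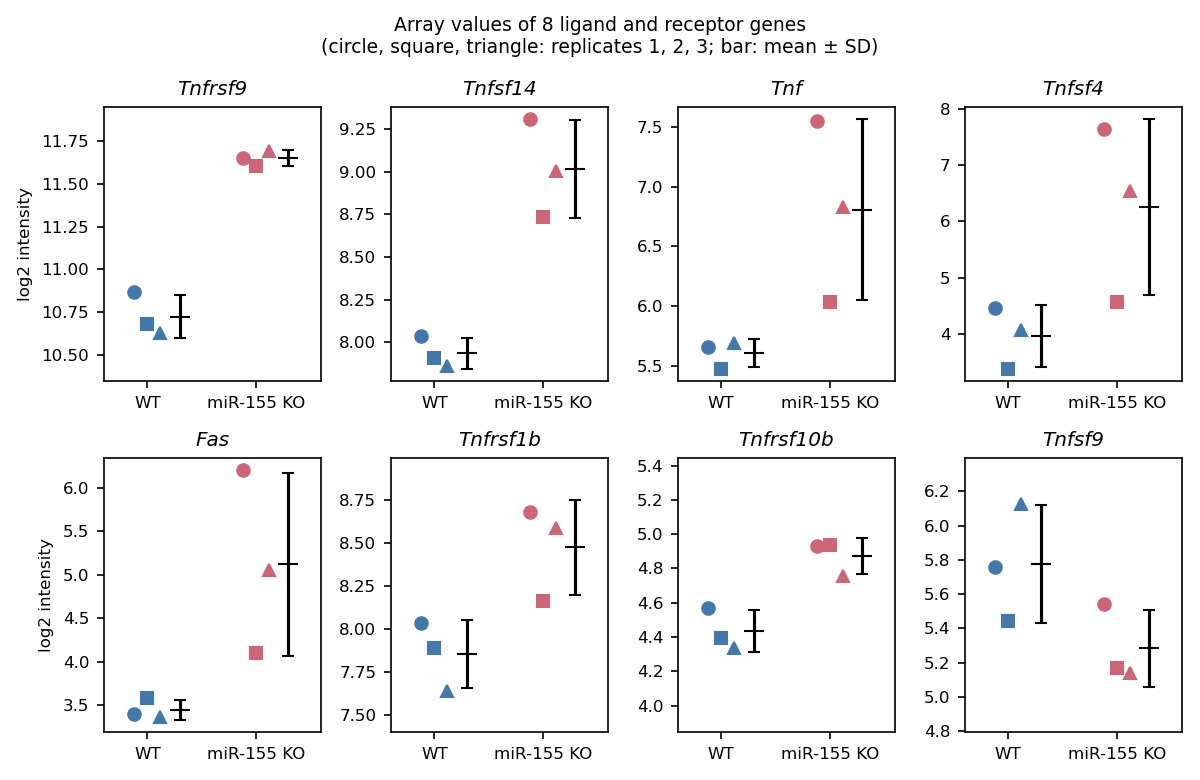
Log2 intensity (y axis, a scale of its own in each panel) of 8 members on the 3 WT (blue) and 3 miR-155 KO arrays (red), with replicates 1, 2 and 3 as circle, square and triangle and bars for the mean ± SD. The KO arrays of Tnfrsf9 lie within 0.09 of each other, while those of Tnfsf4, Fas and Tnf span 3.09, 2.10 and 1.51, and Tnfsf9 has overlapping groups.

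The start regions of both genes that rose are shown, with that of Tnf, the founding member, for comparison. NF-κB and AP-1 are known to drive genes of this family in stimulated cells. Each runs from 250 bases before to 50 after a RefSeq start site in GRCm38.p6, written along the strand of the gene. The motifs searched on both strands were the κB consensus, the AP-1 motif TGANTCA and the TATA motif TATAAA, and capitals mark matches. The Tnfrsf9 window is chr4:150927749-150928048 (plus strand), the Tnfsf14 window chr17:57194132-57194431 (minus strand) and the Tnf window chr17:35201958-35202257 (minus strand).

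Tnfrsf9: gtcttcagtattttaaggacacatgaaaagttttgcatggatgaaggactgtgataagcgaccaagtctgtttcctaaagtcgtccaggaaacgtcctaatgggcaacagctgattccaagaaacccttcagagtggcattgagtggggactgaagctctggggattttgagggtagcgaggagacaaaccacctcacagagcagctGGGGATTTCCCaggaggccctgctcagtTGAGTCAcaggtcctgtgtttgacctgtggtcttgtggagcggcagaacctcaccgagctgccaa
Tnfsf14: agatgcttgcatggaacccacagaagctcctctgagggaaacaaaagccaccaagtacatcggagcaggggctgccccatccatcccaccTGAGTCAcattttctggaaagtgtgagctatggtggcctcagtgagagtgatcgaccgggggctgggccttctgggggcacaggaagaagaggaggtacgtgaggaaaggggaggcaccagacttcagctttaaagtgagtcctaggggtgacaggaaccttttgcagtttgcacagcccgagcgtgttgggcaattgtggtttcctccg
Tnf: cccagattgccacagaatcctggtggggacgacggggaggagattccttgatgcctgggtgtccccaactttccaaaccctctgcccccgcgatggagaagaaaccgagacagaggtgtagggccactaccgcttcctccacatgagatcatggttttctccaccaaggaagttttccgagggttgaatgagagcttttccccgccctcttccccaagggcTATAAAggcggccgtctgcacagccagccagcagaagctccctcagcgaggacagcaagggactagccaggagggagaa

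The Tnfrsf9 window held a pair of overlapping κB matches, beginning 43 and 42 bases before the start site, and an AP-1 match 15 bases before it. A second RefSeq start region of Tnfrsf9 held 0 matches to the 3 motifs. The Tnfsf14 window held an AP-1 match 160 bases before the start site, and the Tnf window a TATA match 29 bases before it. Among other members with KO arrays above WT, the window of Fas held an AP-1 match 211 bases before its start site. That of Tnfrsf23 held a TATA match 158 bases before its own, and those of Tnfrsf1b and Tnfrsf13c held 0 matches. Tnfsf4, Tnfsf18, Tnfrsf10b and Tnfrsf26 also had KO arrays above WT, and no window of theirs is described here. Among the 32851 start regions in the table, 8.46% held a κB match, 7.81% an AP-1 match and 13.6% a TATA match. Of the 37 regions of members (33 members had one), 4 held a κB match, 6 an AP-1 match and 6 a TATA match. The regions with a match that are not named above belong to other members. Whether matches go with the differences was not tested. A match describes the letters of the window only.

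Among the ligands that did not pass, Tnf and Tnfsf4 had the largest differences and the widest spread. Tnf, the founding cytokine of the family, read 5.65, 5.47 and 5.69 on the WT replicates and 7.55, 6.04 and 6.83 on the KO replicates. All KO arrays were above WT, and the KO arrays spanned 1.51, so the difference of 1.20 (SE 0.31, 2.30-fold) had an adjusted p of 0.127. Tnfsf4, which encodes OX40 ligand, a T cell co-stimulator that mast cells can display, read 4.45, 3.37 and 4.06 in WT and 7.64, 4.56 and 6.54 in KO. KO replicate 2 lay only just above the highest WT array, and the difference of 2.28 (SE 0.65, 95% interval 0.79 to 3.77) had an adjusted p of 0.166. The WT mean of 3.96 was close to the median gene, so the WT signal may be background and the fold of 4.87 is not exact. Without KO replicate 2, the KO array nearest WT for these genes, both passed, Tnf at 1.58 (adjusted p = 0.0179) and Tnfsf4 at 3.13 (adjusted p = 0.0170). Without KO replicate 1, the array that lay apart, neither passed, and their differences were 0.83 and 1.58. The range of adjusted p across the alternatives was 0.0179 to 0.319 for Tnf and 0.0170 to 0.373 for Tnfsf4.

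Tnfsf9, which encodes 4-1BB ligand, the partner of Tnfrsf9, was the ligand with the most negative difference. It read 5.76, 5.44 and 6.13 in WT and 5.54, 5.17 and 5.14 in KO. The groups overlapped through WT replicate 2 and KO replicate 1, and the difference of -0.49 (SE 0.18, 95% interval -0.89 to -0.09) had an adjusted p of 0.275. Tnfsf10, which encodes the death ligand TRAIL, read 7.34, 7.06 and 7.57 in WT and 7.05, 7.97 and 8.27 in KO. Here KO replicate 1 was the lowest of all 6 arrays while the other KO arrays were the highest, and the difference was 0.44 (SE 0.28, adjusted p = 0.600). Fasl, the ligand of Fas, read 2.85, 2.75 and 2.77 in WT and 2.69, 2.64 and 2.66 in KO, below the median gene, with all KO arrays below WT (difference -0.12, adjusted p = 0.602).

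The other 10 ligands had differences between -0.12 and 0.12. Tnfsf8, which encodes CD30 ligand, was one of the pair with clear signal, at 7.11 ± 0.23 in WT and 7.09 ± 0.03 in KO (95% interval of the difference -0.29 to 0.26). The other, Tnfsf11, which encodes the osteoclast factor RANKL, read 4.95 ± 0.17 and 4.85 ± 0.11. The lymphotoxin genes Lta and Ltb, Cd40lg, Cd70, Eda, Tnfsf13b (BAFF), Tnfsf15 and Tnfsf18 all had means below the median gene, as did Fasl. Over these 9 dim ligands the differences ran from -0.12 to 0.12, and their values may be background in both genotypes.

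Among the receptors that did not pass, Fas, Tnfrsf1b and Tnfrsf10b had the lowest p. Fas, the death receptor, read 3.40, 3.58 and 3.36 on the WT replicates and 6.20, 4.10 and 5.06 on the KO replicates. The groups did not overlap, and KO replicate 1 exceeded KO replicate 2 by 2.10, which left the difference of 1.67 (SE 0.42, 95% interval 0.71 to 2.63) at an adjusted p of 0.119. Fas in WT, at 3.45 ± 0.12, lay below the median gene, so this fold is not exact either. Without KO replicate 2, the KO array nearest WT, Fas passed, at 2.18 (adjusted p = 0.0218, within 0.0218 to 0.309 over its alternatives). Without KO replicate 1 Fas did not pass, at 1.13 (adjusted p = 0.105).

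The genes of the 2 receptors for TNF itself gave unlike values. Tnfrsf1b, which encodes TNFR2, read 8.03, 7.89 and 7.64 in WT and 8.68, 8.16 and 8.59 in KO. Every KO array was above every WT array, with a difference of 0.62 (SE 0.15, 1.54-fold, adjusted p = 0.111). Tnfrsf1a, which encodes the death-domain receptor TNFR1, read 3.40, 3.52 and 3.31 in WT and 3.38, 3.47 and 3.57 in KO, a difference of 0.07 (95% interval -0.15 to 0.28), from a probe set below the median gene. Whether the differences of Tnfrsf1b and Tnfrsf1a differ from each other was not tested.

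Tnfrsf10b, which encodes the TRAIL receptor, read 4.57, 4.39 and 4.34 in WT and 4.93, 4.93 and 4.75 in KO. Its KO arrays lay within 0.18 of each other and above WT, and the difference was 0.44 (SE 0.10, adjusted p = 0.0877). Tnfrsf13c, which encodes the BAFF receptor, read 4.61, 4.44 and 4.44 in WT and 4.99, 4.72 and 4.72 in KO, a difference of 0.32 (SE 0.10, adjusted p = 0.227). Tnfrsf23, which encodes a decoy TRAIL receptor, read 2.93, 3.09 and 2.66 in WT and 3.35, 3.10 and 3.23 in KO, a difference of 0.33 (SE 0.12, adjusted p = 0.290). Of its neighbours in the genome, Tnfrsf26 differed by 0.18 (SE 0.08, adjusted p = 0.359). The other, Tnfrsf22, differed by 0.09 (SE 0.09, adjusted p = 0.809), with overlapping groups. Tnfrsf23 and Tnfrsf26 had KO arrays above WT, and the probe sets of all these neighbours lay below the median gene.

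Tnfrsf1a apart, the 18 receptors with an unadjusted p of at least 0.05, Ltbr, Tnfrsf14 and Tnfrsf4 among them, had differences between -0.15 and 0.31 and overlapping groups. Among those with clear signal, Tnfrsf18 (GITR) read 8.11 ± 0.11 in WT and 7.97 ± 0.18 in KO, Tnfrsf12a (the TWEAK receptor Fn14) 7.70 ± 0.05 and 7.74 ± 0.19, and Tnfrsf13b (TACI) 6.48 ± 0.08 and 6.49 ± 0.12. Their 95% intervals were -0.40 to 0.10, -0.20 to 0.29 and -0.21 to 0.22. Tnfrsf21 (death receptor 6) read 5.87 ± 0.20 and 5.74 ± 0.31, and Ngfr, the low-affinity nerve growth factor receptor, 5.00 ± 0.07 and 4.93 ± 0.33. Cd40, the receptor of CD40 ligand, read 4.39 ± 0.15 and 4.53 ± 0.01. Tnfrsf11b, which encodes the RANKL decoy osteoprotegerin, had 1 high KO array. It read 5.05 on KO replicate 3 against 4.28 and 4.10 on KO replicates 1 and 2. In all, 11 receptors had means below the median gene. For 36 of the 40 members that did not pass, the 95% interval lay within a 2-fold change in either direction, and the 4 others were Tnf, Tnfsf4, Tnfsf10 and Fas.

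Only Tnfrsf9 and Tnfsf14 were called among the members, and they are not partners, so no pair could have both genes called. Of 22 known pairs with both genes measured, 3 held one of these genes: Tnfsf14 with Ltbr, Tnfsf14 with Tnfrsf14, and Tnfsf9 with Tnfrsf9. An unadjusted p under 0.05 was reached by 12.7% of all genes. At that threshold 2 pairs had both genes, Tnf with Tnfrsf1b (both higher in KO) and Tnfsf9 with Tnfrsf9 (ligand lower, receptor higher). Tnfsf14 rose while its receptors did not pass: Ltbr read 4.90, 4.55 and 4.68 in WT and 4.90, 4.71 and 4.74 in KO (difference 0.07, 95% interval -0.18 to 0.32). Tnfrsf14 read 3.96, 4.24 and 4.04 in WT and 4.16, 4.06 and 4.01 in KO (difference -0.00, 95% interval -0.23 to 0.22). Tnfrsf9 rose while its ligand gene Tnfsf9 had a difference of -0.49. Tnfsf4 had a difference of 2.28 while its receptor gene Tnfrsf4 (OX40) read 4.01, 3.93 and 3.78 in WT and 3.97, 4.23 and 3.95 in KO, a difference of 0.14 (SE 0.11, adjusted p = 0.677). Fas had a difference of 1.67 and Fasl one of -0.12.

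**Figure D3:**
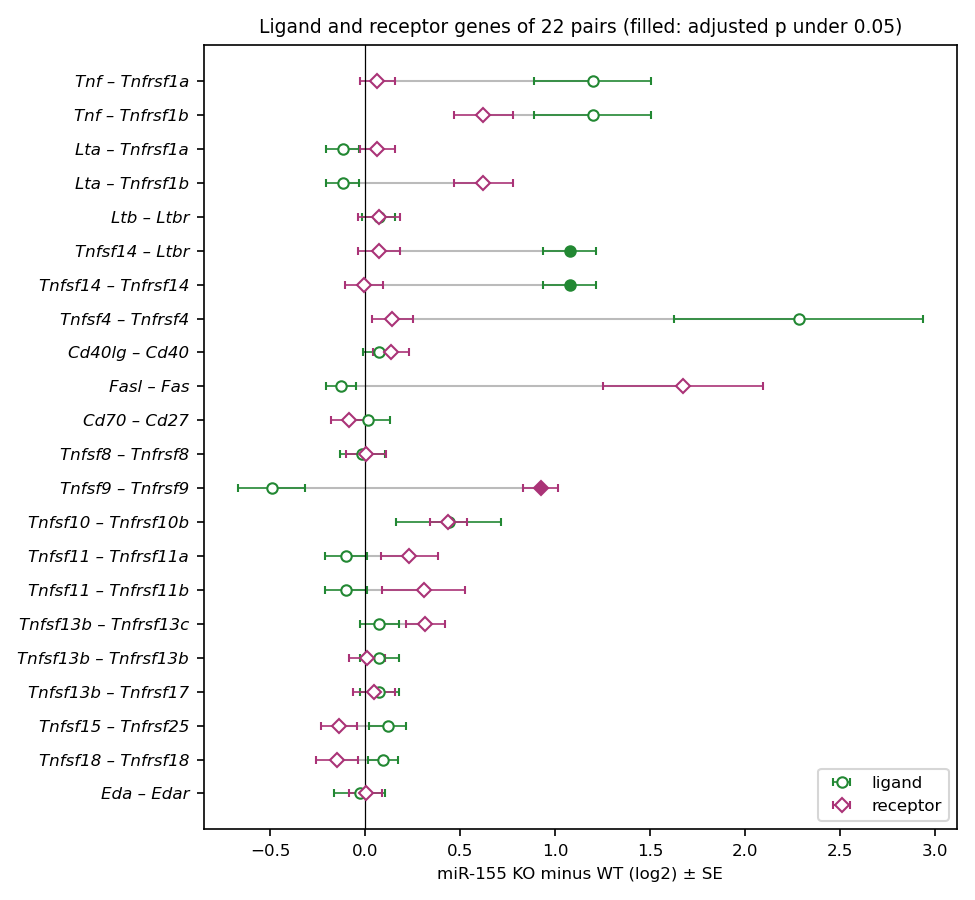
Differences (x axis, miR-155 KO minus WT, log2, with SE as bars) of ligand genes (green circles) and receptor genes (purple diamonds) for 22 binding pairs, each pair on a line of its own. Filled symbols mark an adjusted p under 0.05, seen for Tnfsf14 and for Tnfrsf9 but for none of their partners; a gene with several partners appears once per pair.

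The KO arrays differed among themselves in the same way for many of these genes. Of the 11 members with all KO arrays above WT, KO replicate 1 was the highest KO array for 8 and KO replicate 2 the lowest for 9. Across all 1631 genes with KO above WT, KO replicate 1 was highest for 51.6% and KO replicate 2 lowest for 53.9%. Relative to the mean of the WT arrays, KO replicates 1, 2 and 3 read 3.68, 0.59 and 2.58 for Tnfsf4. The values were 2.75, 0.66 and 1.61 for Fas and 1.94, 0.43 and 1.23 for Tnf. Tnfrsf9 departed from this, at 0.93, 0.88 and 0.97. KO replicate 1 is also the array that lay apart on the first principal component. Without it the differences were 1.58 for Tnfsf4, 1.13 for Fas, 0.83 for Tnf and 0.92 for Tnfrsf9, against 2.28, 1.67, 1.20 and 0.92 with it.

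**Figure D4:**
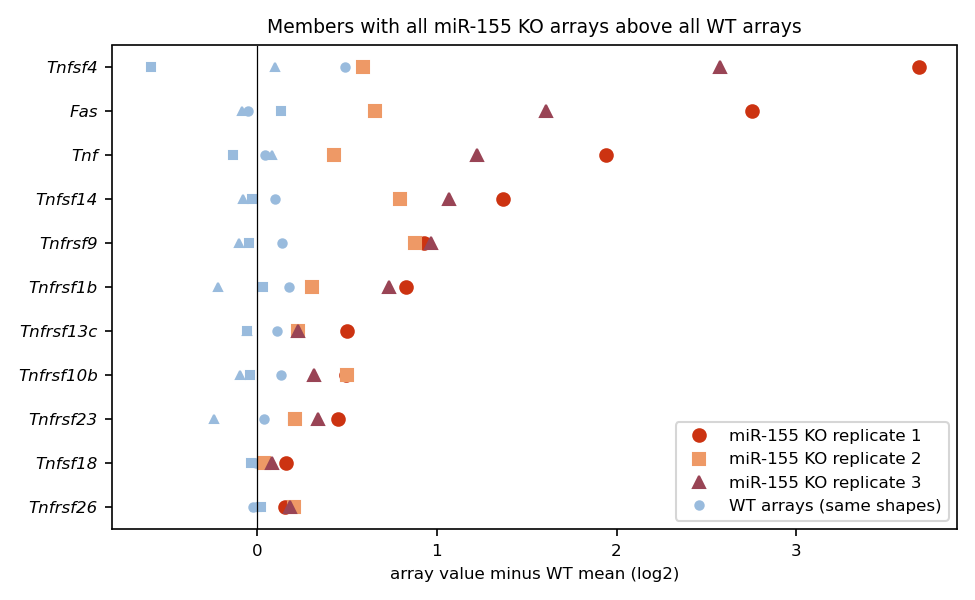
Value on each array minus the WT mean (x axis, log2) for the 11 members whose KO arrays all lay above all WT arrays (y axis), with the KO replicates as large coloured symbols and the WT arrays as small blue ones. KO replicate 1 is rightmost for 8 of the 11, and the 3 KO arrays of Tnfrsf9 nearly coincide at 0.88 to 0.97.

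Among genes that act below TNF receptors (TRAF adaptors, ubiquitin enzymes, kinases and NF-κB proteins), 6 of the 52 measured were called higher and 0 lower, leaving 46, against 0.823% of all genes called. This list was chosen with earlier results of these data known. Of its 52 genes 3 lay below the median gene, against 9969 of all 19938, so the 2 shares are not of like genes. Its median difference was 0.11 (all genes -0.01). Tnip3, which encodes a partner of the NF-κB inhibitor A20, read 4.43, 4.39 and 3.75 in WT and 9.06, 7.38 and 8.06 in KO and rose 15.7-fold (adjusted p = 0.00531). Its relative Tnip1 read 6.29, 6.26 and 6.54 in WT and 7.13, 6.98 and 7.12 in KO and rose 1.64-fold (adjusted p = 0.0258). The KO arrays of Tnip3 spanned 1.68 and those of Tnip1 0.16. The WT mean of Tnip3, 4.19, lay only a little above the median gene (3.92), so the fold of Tnip3 is not exact. Nfkbia, which encodes the NF-κB inhibitor IκBα, read 6.11, 6.00 and 5.85 in WT and 8.87, 7.37 and 7.92 in KO and rose 4.19-fold (adjusted p = 0.0280). Nfkbib, which encodes IκBβ, read 7.16, 7.41 and 7.29 in WT and 8.47, 7.82 and 8.21 in KO and rose 1.84-fold (adjusted p = 0.0474). In Tnip3, Nfkbia and Nfkbib the highest KO array was replicate 1 and the lowest replicate 2. In this list 15 genes had all KO arrays above WT and 4 below, where 8.18% and 9.05% of all genes did. At an unadjusted p under 0.05 there were 16 higher and 3 lower, against 12.7% of all genes in either direction. Among the lower ones Traf7 had the lowest p (difference -0.41, adjusted p = 0.0885). Of the 15 genes with KO above WT, replicate 1 was highest for 12, against 51.6% of such genes over the whole array. Ikbkg, the regulatory subunit NEMO of the IκB kinase, read 6.27, 6.37 and 6.45 in WT and 7.02, 7.03 and 6.95 in KO and rose by 0.64 (SE 0.09, adjusted p = 0.0190). Relb, an NF-κB subunit activated by receptors such as Ltbr and CD40, read 5.89, 5.75 and 5.56 in WT and 6.53, 6.32 and 6.39 in KO. It rose by 0.68 (SE 0.11, adjusted p = 0.0350). Ikbkg and Relb had KO arrays close to each other and clear of WT, yet Ikbkg passed in 2 and Relb in 0 of the 6 fits that left out 1 array (adjusted p for Relb from 0.0538 to 0.114), while Tnip3 passed in all 6. The count was 1, 1 and 2 on leaving out WT replicates 1, 2 and 3 in turn, 5, 7 and 1 on leaving out KO replicates 1, 2 and 3, 5 with median centring and 0 over all probe sets.

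Traf1 and Tnfaip3, named after their values were seen, are an adaptor of TNFR2 and 4-1BB and the NF-κB inhibitor A20. Traf1 read 3.54, 3.30 and 3.47 in WT and 7.01, 4.66 and 5.53 in KO, a difference of 2.30 (SE 0.48, adjusted p = 0.0729). Its WT mean of 3.44 lay below the median gene, so this difference is not exact. Traf1 passed without KO replicate 1 (1.66, adjusted p = 0.0205) and without KO replicate 2 (2.83, adjusted p = 0.0198), within 0.0198 to 0.225 over its alternatives. Its KO arrays spread like those of Fas and Tnf, with replicate 1 highest and replicate 2 lowest. Tnfaip3 read 8.34, 8.36 and 8.28 in WT and 9.75, 8.92 and 9.15 in KO, a difference of 0.95 (SE 0.19, adjusted p = 0.0599), and it passed without KO replicate 1 or 2, with dim genes left out and with trend and robust priors.

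**Figure D5:**
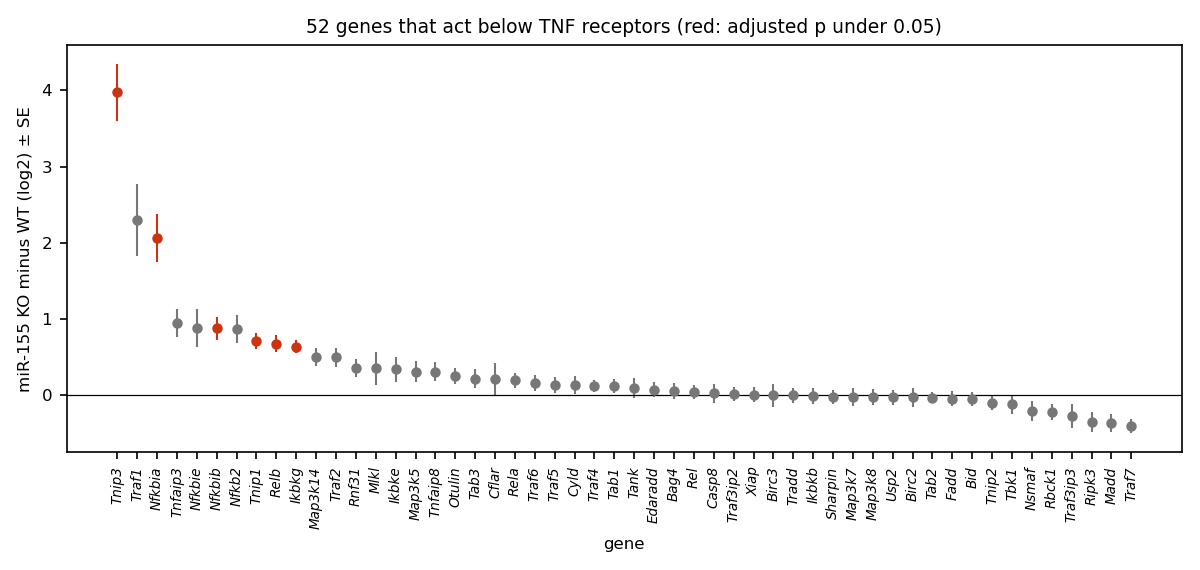
Difference between miR-155 KO and WT (y axis, log2, points with SE) for 52 genes that act below TNF receptors (x axis), sorted by size. Red marks the 6 genes with an adjusted p under 0.05, namely Tnip3, Nfkbia, Nfkbib, Tnip1, Relb and Ikbkg, and the KO difference of Traf1, at 2.30, did not pass.

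TNF is cut from the cell surface by the protease ADAM17. Of 10 genes of this shedding step 0 changed by limma, and 6 reached an unadjusted p under 0.05, all with positive differences (12.7% of all genes in either direction). Furin, a protease that activates ADAM17, read 10.75, 10.99 and 11.04 in WT and 11.51, 11.32 and 11.26 in KO, a difference of 0.44 (SE 0.11, adjusted p = 0.119). Rhbdf1, a carrier of ADAM17, read 5.85, 6.17 and 5.85 in WT and 7.17, 6.36 and 6.48 in KO, a difference of 0.71 (SE 0.20, adjusted p = 0.157). Both had KO arrays above WT, with KO replicate 1 the highest. Itch, a ubiquitin ligase, read 8.64, 8.60 and 8.72 in WT and 8.90, 8.96 and 8.93 in KO, a difference of 0.28 (SE 0.08, adjusted p = 0.168). Adam17 itself read 7.51, 7.37 and 7.58 in WT and 7.87, 7.77 and 7.70 in KO, a difference of 0.29 (SE 0.09, adjusted p = 0.203). These 4 genes were named for their low p, and in all the list 5 of 10 genes had KO arrays above WT, where 8.18% of all genes did. The comparison is not of like genes, since 0 of the 10 lay below the median gene, against 9969 of all 19938. The list was also chosen with earlier results known.

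Of 17 genes that control the Tnf transcript, 1 rose, 0 fell and 16 did not pass, against 0.507% of all genes called higher and 0.316% lower. The list was likewise chosen with earlier results known, and 0 of its 17 genes lay below the median gene. Rc3h1, which encodes Roquin-1, an RNA-binding protein that recognises stem-loops in transcripts including that of Tnf, read 7.10, 6.97 and 7.18 in WT and 8.03, 7.88 and 7.77 in KO. The groups were well apart, and Rc3h1 rose by 0.82 (SE 0.10, 1.76-fold, adjusted p = 0.0121). The call was lost on leaving out WT replicate 1, 2 or 3 (adjusted p = 0.0618, 0.0581 and 0.0502) and over all probe sets (adjusted p = 0.0914, within 0.00705 to 0.0914 over its alternatives). Its relative Rc3h2 read 6.87, 6.89 and 6.77 in WT and 7.29, 7.23 and 7.09 in KO, a difference of 0.36 (SE 0.09, adjusted p = 0.109). The transcription factor gene Nfatc2, whose product drives Tnf in activated cells, read 5.96, 6.03 and 5.89 in WT and 5.02, 5.67 and 5.54 in KO, a difference of -0.55 (SE 0.16, adjusted p = 0.165). Nfatc2 had all KO arrays below WT, while those of Nfatc1 overlapped with WT. Nfatc1 read 7.36, 7.32 and 7.09 in WT and 7.03, 6.90 and 7.13 in KO, a difference of -0.23 (SE 0.11, adjusted p = 0.411).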

How the data were processed

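RNA of 3 WT and 3 miR-155 KO cultures was measured on 1 array each. The authors deposited log2 intensities; per the submitters' processing notes these came from RMA, whose version is not given in the sources used here. This method corrects background, normalizes between arrays and summarises probes, and tends to compress folds of dim genes. Of 35557 probe sets, the platform annotation paired 21789 with 1 symbol and 1621 with several and left 12147 unnamed. The brightest probe set of each symbol gave 19938 genes. Models used limma 3.58.1 (R 4.3.3) with lmFit and eBayes (only genotype as a term, two-sided, Benjamini-Hochberg over all genes), with 4 residual and 4.68 prior degrees of freedom. No filter on low values was used. The number of arrays limits the precision.

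In 20 simulated sets on 19938 genes, 98.9% of changes of 1 log2 unit and 99.9% of changes of 2 units were recovered, and 7.03% of calls were false. The simulated noise was normal and independent between arrays, with 1 spread per gene shared by both genotypes. In the data the SDs in KO and WT were 0.76 and 0.12 for Tnf, 1.05 and 0.12 for Fas and 0.04 and 0.13 for Tnfrsf9. The simulated shares therefore do not carry over to genes whose spread differs between genotypes. Values by array are given for Tnf, members that passed, the 6 ligands and 6 receptors with the lowest p and their receptors, and for each accompanying list the genes that passed and the 4 with the lowest p; other genes were chosen after seeing their values. Members and lists were chosen with earlier results of these data known. Of 56 signalling genes listed, 4 were not analysed here. Start regions come from RefSeq (GRCm38.p6). The labels do not say whether same-numbered cultures were paired. Deviations of same-numbered arrays from their group means correlated at -0.01, -0.06 and 0.24, and 3 arrays per genotype are too few to decide it. Alternatives were a replicate block, median centring, repeated quantile normalization, leaving out dim genes, other priors, array weights, all probe sets, averaged probe sets and leaving out each array. Plots were drawn with matplotlib 3.10.9.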

Additional observations from a re-analysis of the deposited data

How the results depend on the processing

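The counts of changed genes moved most with which array was left out and when every probe set was fitted. Over all 35557 probe sets 0 ligands, 0 receptors, 0 of the members and 0 signalling genes passed by limma, and 4 of all genes did. That fit changes both the number of tests and the variance prior, and their parts were not separated. In the 6 fits without 1 array, the number called was 0 to 3 for ligands, 1 to 2 for receptors, 1 to 5 for all members, 1 to 7 for signalling genes and 15 to 167 for all genes, where fewer arrays also mean fewer degrees of freedom. The count of 5 members, without KO replicate 2, comprised Tnfrsf9, Tnfsf14, Tnf, Tnfsf4 and Fas. Whether same-numbered cultures were paired is not known. With a replicate block 2 ligands passed, Tnfsf14 and Tnfsf4 (adjusted p = 0.0370 for Tnfsf4), and 3 members in all, while all genes went from 164 to 199. With the block Nfkbib did not pass (adjusted p = 0.0708) and Traf1 did (adjusted p = 0.0427). Median centring, repeated quantile normalization, leaving out dim genes (22 members remained tested), trend and robust priors, array weights and averaged probe sets each called Tnfrsf9 and Tnfsf14 and no other member. Among the 34 genes followed singly across the alternatives, no called gene reversed its direction. Of 473 single-gene values over 34 genes, 419 stayed on their side of the threshold, 42 lost and 12 gained a call. Members below the median gene, 20 of 42, limit what the arrays can show of them.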

Other observations

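Of the 42 members, 21 lie in 8 groups of neighbours on their chromosomes, with at most 2 other protein-coding genes between them in RefSeq (GRCm38.p6). On chromosome 17 Tnf sits with Lta and Ltb, and the differences were 1.20, -0.12 and 0.07. The other group on that chromosome holds Tnfsf14, Cd70 and Tnfsf9, with differences of 1.08, 0.02 and -0.49. On chromosome 1 Tnfsf4, Tnfsf18 and Fasl had 2.28, 0.09 and -0.12, and on chromosome 4 Tnfrsf1b and Tnfrsf8 had 0.62 and 0.00. Lta, Ltb, Cd70, Tnfsf18, Fasl and Tnfrsf8 had means below the median gene.

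A few genes related to the superfamily have symbols outside the rule, and 4 of them were measured. Eda2r, a receptor of ectodysplasin A2 that was named after its values were seen, read 4.36, 4.32 and 4.56 in WT. Its KO replicates read 6.76, 5.05 and 5.27. All KO arrays were above WT, and the difference of 1.28 (SE 0.38) had a limma adjusted p of 0.176. It passed without KO replicate 1 (adjusted p = 0.0384, difference 0.75), within 0.0384 to 0.380 over its alternatives. Relt, a receptor of the same superfamily, read 7.10 ± 0.18 in WT and 7.09 ± 0.14 in KO. The remaining genes, Nradd and Pglyrp1, differed by -0.06 and 0.06, and their groups overlapped.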
